A study of Mus musculus with 15 samples.

Results

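Esrrb, Tfcp2l1, Tbx3, Prdm14, Nr5a2, Nr0b1, Zfp42 and Spic are transcription factor genes of naive mouse pluripotency, and they were followed here beside Nanog and the Klf genes of the same network. They were taken by gene symbol, and all 8 were present among the 24982 symbols of the deposited tables and passed the filter on low counts, as 15696 genes did. RNA-seq of polyadenylated RNA was available for 15 libraries labelled E14TG2, an embryonic stem cell (ESC) line of the mouse. They were taken before and during induction of epiblast-like cells (EpiLCs), in 5 groups of 3. These were ESCs at day 0 (genotype given as Control), control and Atg7 knockout (KO) cells at day 2, and control and Atg7 KO cells at day 4. No KO library of day 0 was analysed here, so KO cells had no starting point of their own genotype. ESCs were grown on inactivated mouse embryonic fibroblasts with LIF, the MEK inhibitor PD0325901 and the GSK3 inhibitor CHIR99021. EpiLCs were induced on fibronectin with activin A, bFGF and serum replacement. The labels do not say how the KO was made, whether it is 1 clone, or whether replicates were cultured apart, so p-values measure the spread between these libraries, which may be technical.

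Naive pluripotency is held by a network of transcription factors that bind many of the same enhancers and sustain each other while LIF signalling through STAT3 is on and FGF signalling through ERK is off. When ESCs are moved to activin and FGF the network is normally taken down and formative genes come on. Within it, ESRRB and NR5A2 are orphan nuclear receptors that bind DNA as monomers, NR0B1 is a nuclear receptor relative without the usual DNA-binding domain, TFCP2L1 and TBX3 act downstream of LIF, PRDM14 restrains FGF signalling and de novo DNA methylation, ZFP42 (REX1) is a zinc finger protein used as a naive marker, and SPIC is an ETS factor.

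The libraries held between 14059237 and 23371546 counts, and the 8 pluripotent cell markers checked (among them Pou5f1, Sox2 and Sall4) were all above 1 CPM in every group. Levels are given as CPM (a gene's count relative to the library total after TMM scaling, with the SD of 3 libraries after a mean). Fold changes are log2 values from an edgeR model of all 15 libraries, ± a standard error derived from its test statistic. A gene is said to rise or fall only where edgeR's quasi-likelihood test gave a Benjamini-Hochberg adjusted p under 0.05. Atg7 was lower in every KO library than in every control library of its day, at 7.16 ± 0.349 against 13.6 ± 1.27 CPM at day 2 and 11.9 ± 1.28 against 19.5 ± 0.379 CPM at day 4 (SD, n = 3). The summed level of 12 fibroblast markers was uneven, at 229 to 1728 CPM in ESCs, 270.5 to 314 CPM in control and 458 to 822 CPM in KO at day 2, and 83.9 to 93.6 CPM in control and 126 to 176 CPM in KO at day 4. ESC replicate 3 had the lowest ESC value and KO day 2 replicate 2 the highest KO value. Hprt was between 183 and 203 CPM in the ESC libraries and between 1.59 and 2.94 CPM in all 12 later libraries. Whether the ESCs came from the same cell stock as the later cells is not in the labels, and in comparisons with ESCs stock and day cannot be told apart.

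In control cells 7 of the 8 genes fell from ESCs to day 2, where 34.9% of all tested genes fell, and 1, Zfp42, rose, where 35.6% of all tested genes rose. From day 2 to day 4, 4 fell further (Tfcp2l1, Tbx3, Prdm14 and Spic; 34.6% of all tested genes fell), 2 rose (Esrrb and Zfp42; 33.9% rose) and 2 did not pass (Nr5a2 and Nr0b1). Over the 4 days the count was again 7 lower and 1 higher, beside 35.6% of tested genes lower and 36.2% higher. The median of the 8 was -1.85 at day 2 against ESCs and -2.08 at day 4 against ESCs, while the median of all tested genes was 0.02 in each. Marker sums of other cell types also changed: 8 trophoblast markers summed to 27.2 to 30.9 CPM in ESCs and 493 to 652 CPM in day 4 control. For 8 primitive endoderm markers these sums were 109 to 145 and 524 to 759 CPM, and for 7 EpiLC markers 109 to 227 and 290 to 319 CPM. The 8 pluripotent cell markers had 3234 to 3526 and 2261 to 2478 CPM. Their part in the changes of the 8 genes was not tested. In bulk RNA, fewer cells with a transcript and less transcript per cell cannot be told apart.

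In Atg7 KO cells 5 of the 8 genes were higher than in control at day 2 (Tfcp2l1, Prdm14, Nr5a2, Zfp42 and Spic) and 0 were lower. Among all tested genes 20.4% were higher and 21.4% lower. At day 4, 6 were higher (Esrrb, Tfcp2l1, Tbx3, Prdm14, Nr5a2 and Zfp42) and 0 lower, beside 19.5% and 18.1% of all tested genes. The median log2 difference of the 8 was 0.28 at day 2 and 0.45 at day 4, against -0.01 for all tested genes at each day. The KO effect differed between the days for 5 of the 8: the day 4 value was above the day 2 value for Esrrb, Tfcp2l1, Tbx3 and Nr0b1 (18.6% of all tested genes differed in that direction) and below it for Spic (17.6%). For Nr0b1 the value went from negative to positive with neither passing, and the call on the difference was lost in 8 of 24 alternatives. At day 2 the call of Tfcp2l1 was lost in 10 of 24 alternatives, and Nr0b1 was called lower in 8 of them. Within KO cells, 4 genes rose from day 2 to day 4 (Esrrb, Tbx3, Nr0b1 and Zfp42; 31.2% of all tested genes rose) and 4 fell (Tfcp2l1, Prdm14, Nr5a2 and Spic; 32.0% fell). Of these, the call of Tbx3 was lost in 13 of 24 alternatives, that of Prdm14 in 14, that of Nr5a2 in 3 and that of Tfcp2l1 in 1, so that 3 to 4 genes rose and 2 to 4 fell.

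Cell type markers were also compared between KO and control. For each marker list here and below, the shares of all tested genes at day 2 were 20.4% higher and 21.4% lower. At day 4 they were 19.5% and 18.1%. Of 8 pluripotent cell markers, 2 were higher (Sox2 and Sall4) and 4 lower (Epcam, Cdh1, Tdgf1 and Dppa4) at day 2, when the list summed to 2310 to 2459 CPM in KO and 2650.2 to 2804 CPM in control, and 3 were higher (Pou5f1, Sox2 and Sall4) and 1 lower (Epcam) at day 4. Of 7 EpiLC markers, 1 was higher (Otx2) and 3 were lower (Pou3f1, Sox3 and Dnmt3b, which is also among the PRDM14 targets described with Prdm14) at day 2, when the list summed to 105 to 111 CPM in KO and 148 to 158 CPM in control. At day 4, 2 were higher (Fgf5 and Lin28b) and 2 lower (Otx2 and Pou3f1). Fgf5 had a mean under 1 CPM in every group but day 4 KO. Of 12 fibroblast markers, 5 were higher (Col1a1, Col1a2, Col3a1, Lum and Dcn) and 0 lower at day 2 (median 1.13). At day 4, 1 was higher (Col1a1) and 0 lower (median 1.17). Of 8 primitive endoderm markers, 4 were higher (Sox7, Foxa2, Lama1 and Pdgfra) and 0 lower at day 2 (median 0.46). At day 4, 1 was higher (Gata6) and 0 lower (median 0.14). Of 6 germ cell markers, 3 were higher (Prdm1, Nanos3 and Tfap2c) and 0 lower at day 2, and 1 was higher (Prdm1) and 2 lower (Dnd1 and Ddx4) at day 4. All 6 trophoblast markers tested were lower at day 2 (median -0.89), and 4 were lower (Hand1, Gata3, Krt8 and Krt18) at day 4 (median -0.69). Their part in the differences of the 8 genes was not tested, apart from the alternatives that bear on fibroblast RNA: a collagen score (mean log2 CPM of Col1a1, Col1a2 and Col3a1) as a covariate, and a fit of 13 libraries that omits ESC replicate 3 and KO day 2 replicate 2.

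**Figure D1:**
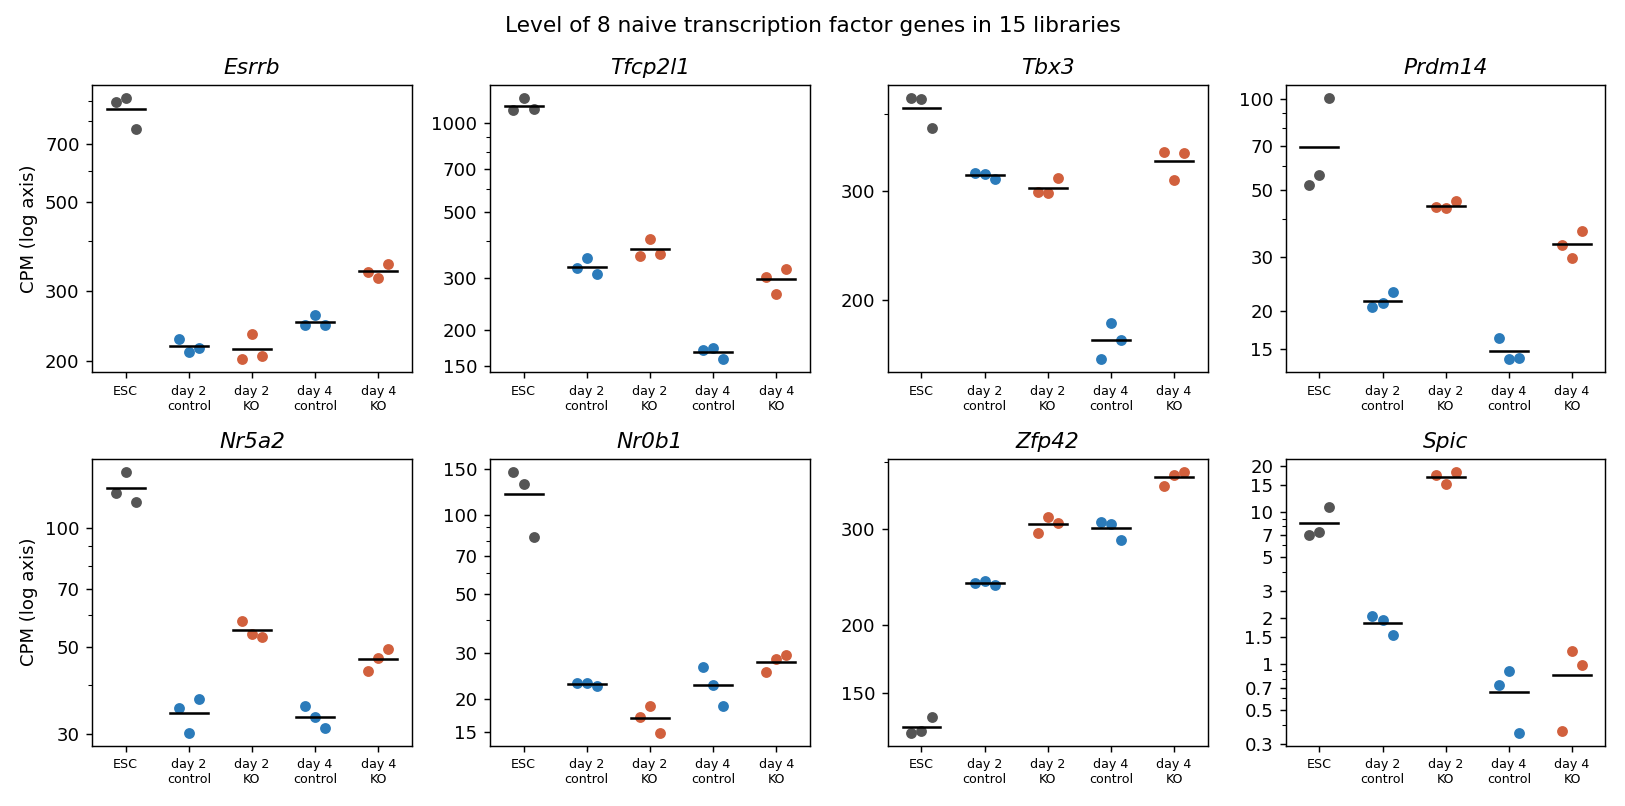
CPM of each gene (vertical log axes, scaled separately) in the 15 libraries, with 1 point per library and a bar at the mean of each group of 3. Zfp42 is lowest in ESCs, and Spic is highest in day 2 KO, at 15.1 to 18.3 CPM.

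Among the nuclear receptors, Esrrb (ENSMUSG00000021255.17, chromosome 12, 86361117 to 86521628, plus strand, GRCm38) encodes a receptor that takes part in naive self-renewal downstream of GSK3 inhibition. ESC replicates 1, 2 and 3 had 893, 913 and 764 CPM. Control cells had 227, 211 and 215 CPM at day 2 and 246, 261 and 246 CPM at day 4. KO cells had 202, 234 and 205 CPM at day 2 and 334, 323 and 349 CPM at day 4. Every later library was thus far below every ESC library, the day 2 groups overlapped, and the day 4 KO libraries were all above the day 4 controls. Esrrb fell by 1.98 ± 0.07 to day 2, to 25.4% of the ESC mean (edgeR adjusted p = 2.25e-12). It then rose by 0.21 ± 0.07 in control (edgeR adjusted p = 0.0159), a call lost without control day 2 replicate 2 or 3 or control day 4 replicate 2, where the change was 0.18 to 0.19; with the collagen score it was 0.46. At day 2 the KO difference was -0.03 (95% confidence interval -0.17 to 0.12), and at day 4 it was 0.42 ± 0.07 (edgeR adjusted p = 0.000212). With the collagen score these were -0.16, which passed (edgeR adjusted p = 0.0458), and 0.27 (edgeR adjusted p = 0.0025).

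Nr5a2 (ENSMUSG00000026398.14, chromosome 1, 136842571 to 136960448, minus strand) encodes LRH-1, which binds much the same DNA element as ESRRB. Its levels were 122, 139 and 116 CPM in ESCs, 34.9, 30.2 and 36.7 CPM in control at day 2, and 58.1, 53.9 and 53.0 CPM in KO at day 2. At day 4 they were 35.4, 33.2 and 31.1 CPM in control and 43.4, 46.7 and 49.3 CPM in KO. KO libraries lay above control libraries on both days, with no overlap, and below the ESCs. Nr5a2 fell by 1.89 ± 0.09 in control up to day 2 (edgeR adjusted p = 2.16e-11), and its difference from day 2 to day 4 did not pass, at -0.03 (95% confidence interval -0.22 to 0.15). KO was higher by 0.69 ± 0.09 at day 2 and 0.48 ± 0.09 at day 4 (edgeR adjusted p of 1.27e-05 and 0.000431), and the difference between these did not pass, at -0.21 (95% confidence interval -0.47 to 0.05). Mean levels in KO were thus 43.7% of the ESC mean at day 2 and 37.0% at day 4, against 27.0% and 26.4% in control. Within KO the decrease of 0.24 ± 0.08 from day 2 to day 4 passed (edgeR adjusted p = 0.0199), but not with the collagen score (-0.17) or without KO day 2 replicate 1 or KO day 4 replicate 1 (-0.20 each).

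Nr0b1 (ENSMUSG00000025056.4, chromosome X, 86191764 to 86195947, plus strand) encodes DAX1, which binds other nuclear receptors and mostly represses them, and which also binds OCT4 in ESCs. ESC libraries had 146, 132 and 82.2 CPM. At day 2 control had 22.99, 23.1 and 22.4 CPM and KO 17.04, 18.8 and 14.9 CPM. At day 4 control had 26.5, 22.5 and 18.8 CPM and KO 25.3, 28.2 and 29.4 CPM. All day 2 KO libraries were below all day 2 controls, the day 4 groups overlapped, and ESC replicate 3 stood apart from the other ESC libraries. Nr0b1 fell by 2.39 ± 0.17 to day 2 (edgeR adjusted p = 2.73e-09) and its difference from day 2 to day 4 in control was -0.01 (95% confidence interval -0.38 to 0.35). Day 4 control was below ESCs by 2.41 ± 0.17, a difference of -1.12 with the collagen score, under which Nr0b1 rose in control from day 2 to day 4 by 0.69 (edgeR adjusted p = 0.000739).

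The KO difference in Nr0b1 was -0.43 ± 0.17 at day 2 and did not pass (edgeR adjusted p = 0.0561). It passed in 8 of 24 alternatives, over which the adjusted p ran from 1.61e-05 to 0.189: without ESC replicate 1 (-0.43, edgeR adjusted p = 0.0296) or 3 (-0.43, edgeR adjusted p = 0.00113), with DESeq2 (-0.43, adjusted p = 0.0388), with no filter, with the replicate block, with 13 libraries (-0.52), with only the groups compared (-0.42, edgeR adjusted p = 0.000694) and with the collagen score (-0.81). At day 4 it was 0.29 (95% confidence interval -0.08 to 0.66; edgeR adjusted p = 0.207). That value passed in 3 alternatives, without ESC replicate 3 (0.29, edgeR adjusted p = 0.0235), with 13 libraries and with only the groups compared, and it was -0.13 with the collagen score, where it did not pass. The difference between the days was 0.72 ± 0.25 (edgeR adjusted p = 0.0305), and it lost its call in 8 refits that each left out 1 library, at 0.60 to 0.73 with edgeR adjusted p between 0.0529 and 0.083. Those libraries were control day 2 replicates 1 and 2, KO day 2 replicates 1 and 3, control day 4 replicates 2 and 3 and KO day 4 replicates 2 and 3. Within KO, Nr0b1 was higher at day 4 than at day 2 by 0.71 ± 0.17 (edgeR adjusted p = 0.00205), or by 1.37 with the collagen score. Its X chromosome as a whole had a median log2 KO difference of -0.10 over 605 genes at day 2 and -0.11 at day 4.

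**Figure D2:**
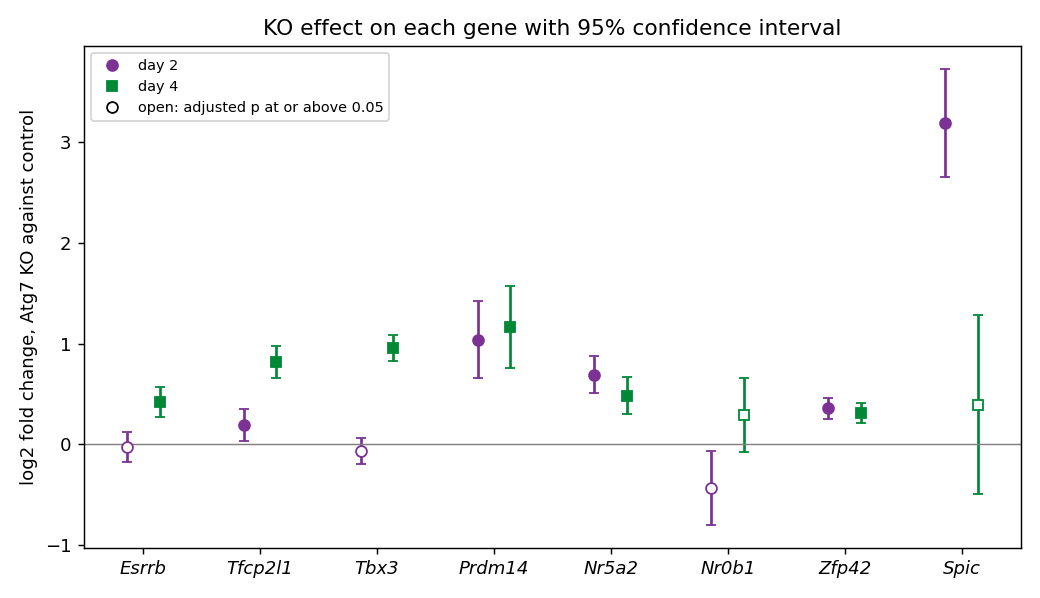
Log2 fold change of Atg7 KO against control for each gene at day 2 (circles) and day 4 (squares), with 95% confidence intervals derived from the edgeR test statistic. Open symbols mark an adjusted p of 0.05 or more. Spic stands at 3.19 at day 2 and its day 4 interval spans 0, while Esrrb and Tbx3 are near 0 at day 2 and stand at 0.42 and 0.96 at day 4.

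Of the genes downstream of LIF, Tfcp2l1 (ENSMUSG00000026380.10, chromosome 1, 118627945 to 118685168, plus strand) is a direct STAT3 target that can itself maintain naive cells. ESCs had 1108, 1217 and 1115 CPM. Control had 322, 350.0 and 308 CPM at day 2 and 170.1, 173 and 159 CPM at day 4. KO had 354, 406 and 362 CPM at day 2 and 302, 264 and 321 CPM at day 4. The day 2 KO libraries lay just above the controls, with 354 against 350.0 CPM at the nearest, and the day 4 KO libraries lay well above theirs. In control it fell by 1.81 ± 0.08 to day 2 and by a further 0.97 ± 0.08 to day 4 (edgeR adjusted p of 8.74e-12 and 1.14e-08), to 14.6% of the ESC mean. In KO the decrease from day 2 to day 4 was 0.34 ± 0.07 (edgeR adjusted p = 0.000841; -0.25 and adjusted p = 0.057 with the collagen score).

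The KO difference in Tfcp2l1 was 0.20 ± 0.07 at day 2 and 0.82 ± 0.08 at day 4 (edgeR adjusted p of 0.0448 and 8.93e-07), and the latter exceeded the former by 0.63 ± 0.11 (edgeR adjusted p = 0.000276). The day 2 call was lost in 10 of 24 alternatives, where it was 0.13 to 0.22. These were the collagen score, the replicate block (0.19, edgeR adjusted p = 0.0524), the fit of 13 libraries, and leaving out control day 2 replicate 1 or 3, KO day 2 replicate 2 or 3, control day 4 replicate 1 or 2, or KO day 4 replicate 1. Day 4 KO, at a mean of 296 CPM, was not separated from day 2 control, at 327 CPM (edgeR adjusted p = 0.0976).

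Tbx3 (ENSMUSG00000018604.18, chromosome 5, 119670669 to 119684724, plus strand) is a T-box repressor that responds to LIF through PI3K signalling and is also used in endoderm and mesoderm. ESCs had 424, 423 and 380.0 CPM. At day 2 control had 321, 320.3 and 314 CPM and KO had 299.8, 298 and 315 CPM. At day 4 control had 161, 184 and 173 CPM and KO had 348, 313 and 346 CPM. The day 2 groups overlapped, and at day 4 the control libraries were all below every other library while the KO libraries reached or passed their day 2 range. In control Tbx3 fell first by 0.36 ± 0.06 and then by 0.88 ± 0.06 (edgeR adjusted p of 4.87e-05 and 2.57e-09). Its KO difference was -0.07 at day 2 (95% confidence interval -0.19 to 0.06) and 0.96 ± 0.06 at day 4 (edgeR adjusted p = 3.62e-08). The difference between the days was 1.03 ± 0.09 (edgeR adjusted p = 8.57e-07), and it passed in all 24 alternatives at 0.95 to 1.08.

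Within KO, Tbx3 was higher at day 4 than at day 2 by 0.14 ± 0.06 (edgeR adjusted p = 0.0481), a call that 13 of 24 alternatives lost at 0.11 to 0.16, among them no filter (0.12) and leaving out any 1 KO day 2 library, any 1 control day 2 library, control day 4 replicate 3, or KO day 4 replicate 1 or 3. Exons of Tbx3 overlap those of the antisense gene Tbx3os1 on the other strand. The sources used here do not say whether reads were counted by strand, so reads of the antisense gene cannot be told apart from those of Tbx3. Markers of primitive endoderm, which also uses Tbx3, summed to 524 to 759 CPM in control and 688 to 795 CPM in KO at day 4, with 1 of 8 tested markers (Gata6) higher in KO and 0 lower. Of the 6 mesoderm markers 5 were tested, of which 2 (Kdr and Tbx20) were lower in KO at day 4 and 0 higher, and the list summed to 16.1 to 20.6 CPM in control and 9.05 to 9.98 CPM in KO at day 4. The part of either list in the Tbx3 difference was not tested.

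Prdm14 (ENSMUSG00000042414.7, chromosome 1, 13113457 to 13127163, minus strand) encodes a PR-domain protein that, with its partner CBFA2T2 and polycomb proteins, represses genes of FGF signalling and de novo methylation. ESC replicates 1, 2 and 3 had 51.8, 56.0 and 101 CPM. Control had 20.5, 21.3 and 23.03 CPM at day 2 and 16.3, 13.9 and 13.96 CPM at day 4. KO had 43.8, 43.5 and 46.0 CPM at day 2 and 32.9, 29.8 and 36.6 CPM at day 4. KO libraries were above control libraries at both days and below the ESC libraries, and the highest ESC value was that of replicate 3. Prdm14 fell by 1.68 ± 0.18 to day 2 (edgeR adjusted p = 4.56e-07), or by 1.31 without ESC replicate 3, and by a further 0.56 ± 0.20 to day 4 (edgeR adjusted p = 0.0188). That second step did not pass without control day 2 replicate 3 or control day 4 replicate 2 or 3, at -0.52 to -0.51. With the collagen score that step was -1.31, and the difference of day 4 from ESCs was -3.52 in place of -2.24.

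KO exceeded control in Prdm14 by 1.04 ± 0.18 at day 2 and 1.17 ± 0.19 at day 4 (edgeR adjusted p of 0.000284 and 0.000199), and both passed in all 24 alternatives, at 1.00 to 1.44 and 1.09 to 1.62. The difference between the days was 0.13 (95% confidence interval -0.43 to 0.69). KO at day 2 remained below the ESCs by 0.64 ± 0.17 (edgeR adjusted p = 0.00392). The decrease within KO from day 2 to day 4, 0.43 ± 0.18 (edgeR adjusted p = 0.046), was lost in 14 of 24 alternatives at -0.45 to -0.36, including RLE and upper quartile scaling, DESeq2 and leaving out any 1 control library of day 2 or 4, any 1 KO day 2 library or KO day 4 replicate 1 or 2; with the collagen score it was -1.14.

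Of 6 genes known to be repressed by PRDM14, 5 were lower in KO at day 2 (Dnmt3a, Dnmt3b, Dnmt3l, Uhrf1 and Fgfr1) and 0 higher, with a median of -0.40. Among all tested genes, 21.4% were lower and 20.4% higher at day 2, and 18.1% and 19.5% at day 4. Dnmt3l, a cofactor of the de novo methyltransferases, had 306, 316 and 297 CPM in control and 96.0, 98.6 and 90.6 CPM in KO, a decrease of 1.69 ± 0.18 (edgeR adjusted p = 3.15e-06). Dnmt3b had 121, 119 and 121 CPM in control and 67.6, 70.9 and 71.8 CPM in KO, lower by 0.78 ± 0.20. At day 4, 1 gene was lower, Dnmt3l, by 0.76 ± 0.17, 1 was higher, Dnmt3a, by 0.31 ± 0.07, and 4 did not pass. The day 4 value of the KO effect was above the day 2 value for 5 of the 6 (Dnmt3a, Dnmt3b, Dnmt3l, Uhrf1 and Fgfr1), beside 18.6% of all tested genes. The median difference of the 6 was 0.56. For Prdm14 that difference was 0.13 (95% confidence interval -0.43 to 0.69) and did not pass. A link between Prdm14 and these genes was not tested. Control cells had 505 ± 78.9 CPM of Dnmt3l at day 4, and KO cells had 299 ± 21.5 CPM.

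Zfp42 went the other way in time. The gene (ENSMUSG00000051176.6, chromosome 8, 43295063 to 43306980, minus strand) had 126, 127 and 135 CPM in ESCs, 239, 241 and 237 CPM in control at day 2 and 310.2, 307 and 287 CPM in control at day 4. KO had 296, 316 and 308 CPM at day 2 and 361, 378 and 383 CPM at day 4. Each later group was above the ESCs, and the KO libraries were above the control libraries of their day with no overlap. The increase in control was 0.88 ± 0.05 to day 2 and then 0.33 ± 0.05 (edgeR adjusted p of 1.75e-10 and 1.16e-05), to 232% of the ESC mean. KO exceeded control by 0.36 ± 0.05 at day 2 and 0.31 ± 0.05 at day 4 (edgeR adjusted p of 2.71e-05 and 9.68e-05), and the difference between these was -0.04 (95% confidence interval -0.19 to 0.10). KO at day 2 and control at day 4 were not separated (edgeR adjusted p = 0.675). The increases in control and the KO differences passed in all 24 alternatives. Genes of its chromosome 8 had medians of -0.03 and 0.01 in KO against control at days 2 and 4.

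Spic (ENSMUSG00000004359.16, chromosome 10, 88674772 to 88685015, minus strand) had the widest range. SPIC is known from naive cells and from red pulp macrophages. ESCs had 7.05, 7.31 and 10.7 CPM, from 105, 108 and 162 counts. At day 2 control had 2.06, 1.94 and 1.56 CPM (37, 41 and 36 counts) and KO had 17.3, 15.1 and 18.3 CPM (350, 363 and 426 counts). At day 4 control had 0.722, 0.897 and 0.353 CPM (12, 13 and 6 counts) and KO had 0.364, 1.21 and 0.979 CPM (6, 21 and 15 counts). The day 2 KO libraries were above all others, ESCs included, and at day 4 both groups were low and overlapped.

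In control Spic fell by 2.18 ± 0.26 to day 2 and then by 1.499 ± 0.36 (edgeR adjusted p of 1.45e-06 and 0.00153), and its day 4 difference from ESCs was -3.68, or -4.63 with the collagen score. At day 2 KO was higher than control by 3.19 ± 0.25, which is 9.14-fold (edgeR adjusted p = 2.19e-07), and higher than ESCs by 1.02 ± 0.22 (edgeR adjusted p = 0.000777). Within KO it then fell by 4.30 ± 0.29 (edgeR adjusted p = 3.97e-09). The KO difference at day 4 was 0.40 (95% confidence interval -0.50 to 1.29), not detectable at these counts, and the difference between the days was -2.80 ± 0.51 (edgeR adjusted p = 0.000537). KO against control at day 2, each step in time and the difference between the days passed in all 24 alternatives, with 3.08 to 3.48 for KO against control at day 2.

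Col1a1, Col1a2 and Col3a1 were higher in day 2 KO as well (by 1.24 ± 0.38, 1.22 ± 0.40 and 1.89 ± 0.62). ESC replicate 3 had the lowest collagen score of the ESCs (5.86 against 8.93 and 7.98) and the highest Spic, and KO day 2 replicate 2 had the highest score of its group (7.49 against 6.51 and 6.82) and the lowest Spic. In day 2 control both fell together, with scores of 5.69, 5.59 and 5.41 beside 2.06, 1.94 and 1.56 CPM. In day 4 control they went opposite ways, with 2.91, 2.79 and 3.04 beside 0.722, 0.897 and 0.353 CPM. Neither order held throughout in the KO groups. With the score as a covariate the day 2 difference in Spic was 3.48 (edgeR adjusted p = 4.67e-10). KO and control scores did not overlap at day 2, so this value reaches across separate ranges. Of 8 macrophage markers, 5 had a mean under 1 CPM in day 2 KO (Ptprc, Csf1r, Adgre1, C1qa and Fcgr1, the latter and C1qa at 0 counts), and the list summed to 22.2 to 24.4 CPM in KO and 25.7 to 26.6 CPM in control. Of the 5 tested at day 2, 1 was higher in KO (Itgam) and 3 were lower (Ptprc, Adgre1 and Lyz2). Ptprc, which encodes CD45, stood at 0.156 ± 0.0538 CPM in day 2 control, from 2 to 5 counts a library, and at 0.0139 ± 0.0240 CPM in day 2 KO, from 0 or 1 count.

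**Figure D3:**
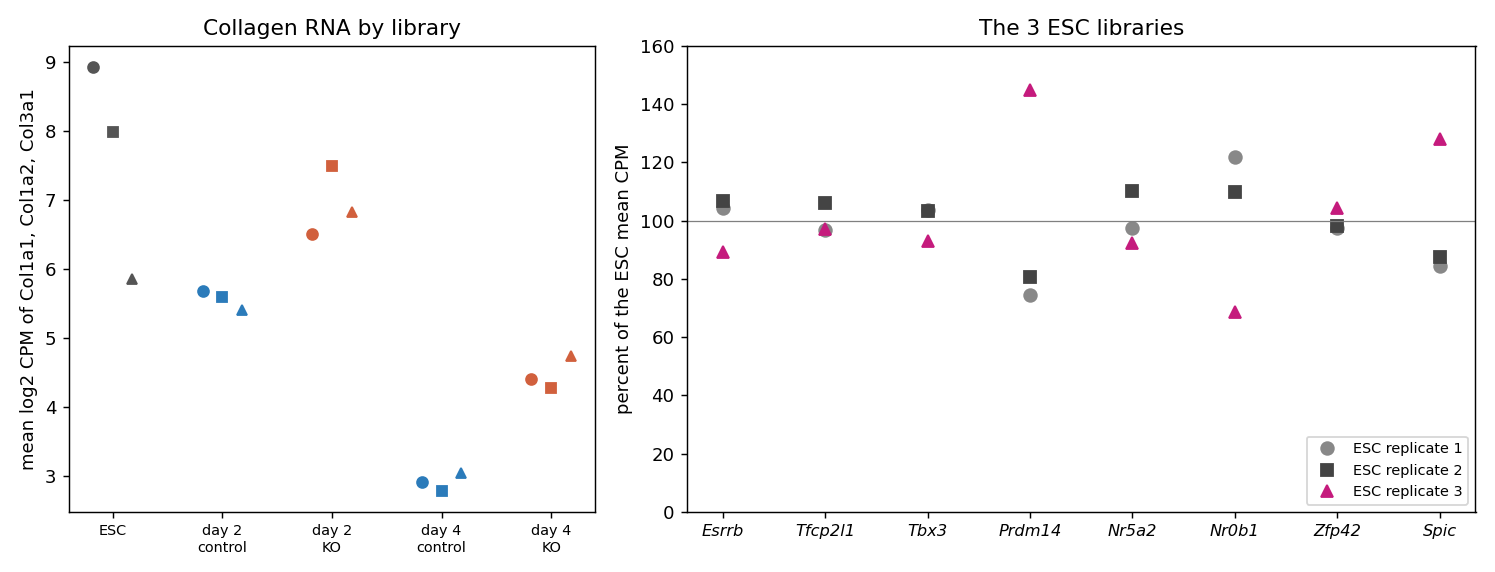
Left, collagen score (mean log2 CPM of 3 collagen genes) of each library by group, with circles, squares and triangles for replicates 1, 2 and 3. Right, level of each gene in the 3 ESC libraries as percent of the ESC mean. Replicate 3 (triangles) is the highest for Prdm14, Zfp42 and Spic and the lowest for Esrrb, Tbx3, Nr5a2 and Nr0b1.

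Levels of different genes can be compared only per length, here as CPM per kilobase of merged exons in GENCODE M21, whatever isoform is used. In ESCs the order of these levels was Esrrb (142 ± 13.4), Tfcp2l1 (122 ± 6.46), Zfp42 (68.9 ± 2.55), Nr0b1 (66.3 ± 18.5), Tbx3 (61.8 ± 3.82), Prdm14 (27.1 ± 10.5), Nr5a2 (21.3 ± 1.96) and Spic (2.17 ± 0.528). The ranges of neighbours in this order overlapped between Esrrb and Tfcp2l1, between Zfp42 and Nr0b1, between Nr0b1 and Tbx3 and between Prdm14 and Nr5a2. In control at day 4 Zfp42 was first at 160.2 ± 6.57 and Esrrb followed at 41.5 ± 1.39, while Spic was last at 0.171 ± 0.0723. Zfp42 and Esrrb kept these places in KO at day 4, at 199 ± 6.09 and 55.5 ± 2.22, followed by Tbx3 at 50.7 ± 2.99.

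The order of the 5 groups differed from gene to gene. ESCs were highest for 6 of the 8, the exceptions being Zfp42 (lowest in ESCs) and Spic (highest in day 2 KO). Neighbours that the pairwise edgeR tests did not separate were the day 2 groups for Esrrb, day 2 control and day 4 KO for Tfcp2l1, day 4 KO with day 2 control and the day 2 groups for Tbx3, the control groups for Nr5a2, day 4 KO with day 2 control and the control groups for Nr0b1, day 2 KO and day 4 control for Zfp42, and the day 4 groups for Spic. For Prdm14 every neighbour was separated, in the order ESCs, day 2 KO, day 4 KO, day 2 control and day 4 control.

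Patterns over the 5 groups were compared by the root mean square difference of mean log2 CPM after centring each gene, a description over 5 points that share their libraries. Among the 8, the closest were Esrrb and Nr0b1 (0.29) and Prdm14 and Nr5a2 (0.31), and the farthest were Zfp42 and Spic (2.09). Among 11612 other genes, the one nearest to Zfp42 was Nr3c1 (0.04), the glucocorticoid receptor gene. For Tbx3 it was Maz (0.07), a zinc finger gene, for Nr0b1 Rnf225 (0.07), and for Nr5a2 Aebp1 (0.10). The ESC libraries differed widely in Nr3c1 (31.8 ± 17.2 CPM) and Aebp1 (35.0 ± 27.2 CPM), so their ESC points are uncertain. For Esrrb they were Sec1 (0.13), Sema5a (0.14) and the Wnt receptor gene Fzd5 (0.14), and for Prdm14 Mcf2 (0.17), Impa2 (0.18) and Gli2 (0.18), a Hedgehog effector.

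No gene compared was as close to Spic, but the measure is not scaled to range. The group means of Spic spanned 4.54 log2 units, and those of the other members 1.24 to 2.78. The nearest, at 0.49, was Ifitm1, an interferon-induced membrane protein gene, with 27.7 ± 5.02 CPM in ESCs, 12.6 ± 0.692 CPM in control and 51.6 ± 4.80 CPM in KO at day 2, and 4.87 ± 0.149 and 4.69 ± 0.589 CPM at day 4. Col1a2 (0.68) and Ccdc80 (0.72), both fibroblast genes, came next, with 229 ± 175 and 21.5 ± 17.4 CPM in ESCs.

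**Figure D4:**
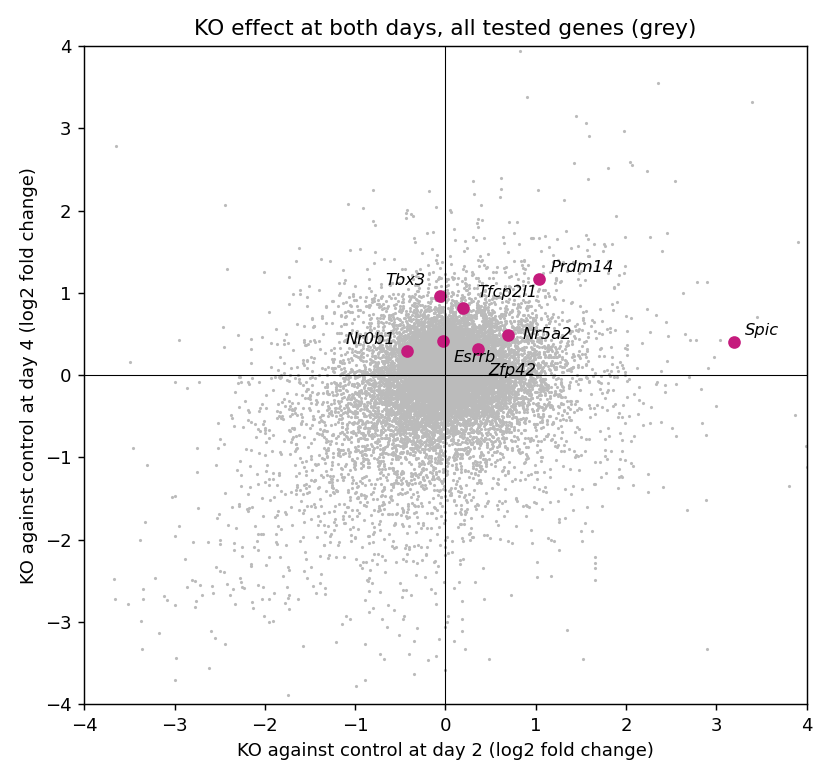
Log2 fold change of KO against control at day 2 (horizontal) and day 4 (vertical) for the tested genes (grey) and the 8 naive factor genes (labelled), which use separate control libraries on each axis; 22 genes lie outside the axes. Spic is far to the right at 3.19 and 0.40, and Prdm14 is above 1 on both axes.

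Tfcp2l1, Prdm14 and Nr5a2 all lie on chromosome 1, which had a median KO difference of -0.05 at each day. The nearest tested coding gene to Spic at higher coordinates, Arl1 at 45843 bp, had a KO difference of 0.32 at day 2, and on the other side Mybpc1, at 69620 bp, had -0.05. Gli2, 148964 bp beyond Tfcp2l1, had 42.1 ± 4.62 CPM (control) and 77.1 ± 2.27 CPM (KO) at day 2, and 29.0 ± 3.00 and 76.1 ± 3.51 CPM at day 4. On the other side of Tfcp2l1, Clasp1, at 15267 bp, had KO differences of -0.08 at day 2 and 0.09 at day 4. Ncoa2, 11942 bp from Prdm14, had KO differences of 0.50 and 0.66. On the other side of Prdm14, Slco5a1, at 120807 bp, had -0.21 and -0.55. These neighbours were looked at after the results were known, and no test was made of them here.

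RefSeq windows around start sites were found for 6 of the 8 genes (GRCm38.p6; 250 bases before and 50 after each start). The stretches just before the starts of the gene that rose in time, the gene with the largest KO difference, and a pair whose KO values at day 2 had opposite signs are shown 5′ to 3′, with motif matches in capitals. They are Zfp42 (chr8:43307010-43307209, minus strand), Spic (chr10:88683024-88683223, minus strand), Tfcp2l1 (chr1:118627745-118627944, plus strand) and Nr0b1 (chrX:86191575-86191763, plus strand, with its last base at position -12).
Zfp42: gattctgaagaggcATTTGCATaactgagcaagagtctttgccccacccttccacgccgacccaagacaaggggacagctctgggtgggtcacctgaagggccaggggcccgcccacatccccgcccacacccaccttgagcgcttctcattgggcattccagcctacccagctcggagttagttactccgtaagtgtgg
Spic: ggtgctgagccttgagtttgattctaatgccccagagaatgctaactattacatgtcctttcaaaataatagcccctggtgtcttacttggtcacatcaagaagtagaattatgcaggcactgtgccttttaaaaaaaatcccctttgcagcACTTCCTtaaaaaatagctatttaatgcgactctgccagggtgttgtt
Tfcp2l1: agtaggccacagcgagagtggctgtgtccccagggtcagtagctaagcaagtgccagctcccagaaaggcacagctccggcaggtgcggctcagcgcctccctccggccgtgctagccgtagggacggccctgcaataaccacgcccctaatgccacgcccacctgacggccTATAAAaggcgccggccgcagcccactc
Nr0b1: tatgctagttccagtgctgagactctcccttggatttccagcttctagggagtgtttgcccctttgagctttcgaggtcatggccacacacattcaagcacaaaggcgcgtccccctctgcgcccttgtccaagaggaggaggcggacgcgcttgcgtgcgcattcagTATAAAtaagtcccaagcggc

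Both strands were searched for 8 elements in every window. The octamer bound by OCT4, ATGCAAAT, is in 1.74% of 32851 RefSeq windows and in 1 window of the 6 genes, that of Zfp42, where it lies reversed (ATTTGCAT) at position -186 from the start. The ETS element AGGAAGT, in 9.35% of windows, is before Spic, reversed, and the TATA box TATAAA, in 13.6%, is before Tfcp2l1, Nr0b1 and, reversed, the upstream start of Nr5a2. The ESRRB and NR5A2 element TCAAGGTCA (0.423%), the STAT element TTCCNGGAA (1.15%), the PRDM14 element GGTCTCTAA (0.256%), the YY1 and ZFP42 element GCCATNTT (6.05%) and the T-box element AGGTGTGA (1.28%) are in none of their windows. None of these letter matches overlap each other, and they say nothing of binding in these cells. GENCODE M21 places the outermost start of Spic 1992 bases upstream of the RefSeq start shown, and which start these cells used cannot be read from counts per gene.

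Around the 8 genes, the other naive-state genes were mixed in KO at day 2 and mostly higher at day 4. For this list and those below, the shares of all tested genes at day 2 were 20.4% higher and 21.4% lower. At day 4 they were 19.5% and 18.1%. Of 13, 6 were higher and 3 lower (Klf5, Dppa3 and Zfp57) at day 2 (median 0.20), and 9 were higher and 1 lower at day 4 (median 0.28). Nanog had 551, 493 and 558 CPM in control and 1121, 1181 and 1198 CPM in KO at day 2, and Klf2 was higher on both days (0.87 ± 0.12 and 0.55 ± 0.12). The KO effect on Klf4 was larger at day 4 (1.11 ± 0.11) than at day 2 (0.23 ± 0.10, edgeR adjusted p = 0.0799), and the difference passed. Dppa3, which protects methylated DNA in oocytes and early embryos, was lower on both days, at 39.2 ± 5.79 CPM in control and 4.37 ± 0.921 CPM in KO at day 4, a difference of -3.16 ± 0.17 (edgeR adjusted p = 8.75e-09).

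**Figure D5:**
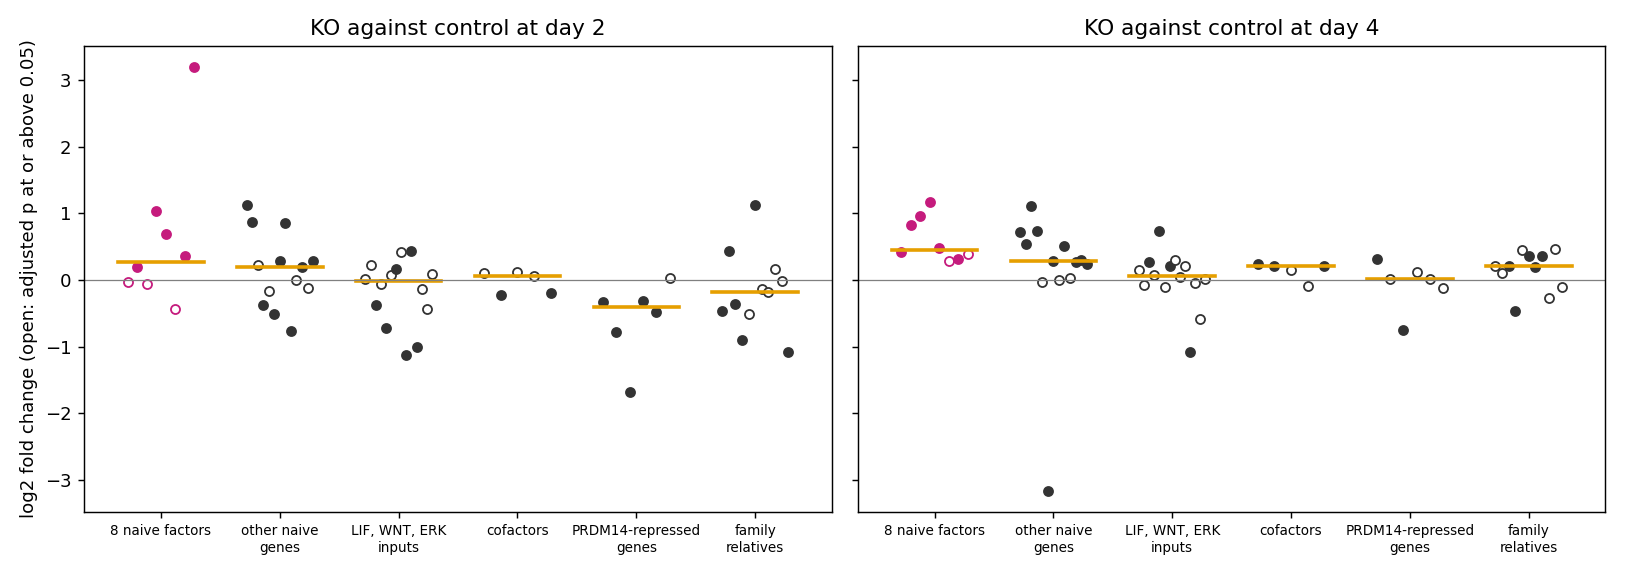
Log2 fold change of KO against control at day 2 (left) and day 4 (right) for the 8 genes and for 5 lists of related genes, with 1 point per tested gene, open where the adjusted p was 0.05 or more, and a line at each list's median. The PRDM14-repressed genes have medians of -0.40 and 0.01.

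Of 14 genes of the inputs to the network, LIF, WNT and ERK, 2 were higher (Gsk3b and Etv5) and 4 lower (Stat3, Tcf7l1, Etv4 and Dusp6) at day 2 (median -0.02), and 3 were higher (Stat3, Tcf7l1 and Gsk3b) and 1 lower (Dusp6) at day 4 (median 0.06). Dusp6, an ERK-induced phosphatase, was lower on both days (by 1.00 ± 0.19 and 1.09 ± 0.17), and Etv4, an ETS gene induced by FGF, was lower by 1.13 ± 0.18 at day 2. Tcf7l1, a repressor of the naive network that GSK3 inhibition removes, was lower by 0.72 ± 0.09 at day 2 and higher by 0.73 ± 0.10 at day 4, as 30.2 ± 1.37 CPM in control and 50.3 ± 1.19 CPM in KO. Stat3 likewise was lower by 0.38 ± 0.07 and then higher by 0.27 ± 0.07.

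Of 5 cofactors, Ncoa3, a coactivator of ESRRB, and Kdm1a were lower at day 2 (by 0.23 ± 0.07 and 0.20 ± 0.05), and Cbfa2t2, Ncoa3 and Kdm1a were higher at day 4 (0.24 ± 0.06, 0.21 ± 0.07 and 0.21 ± 0.05). Among the closest relatives of the 8 genes, 11 of 14 had enough counts to be tested, and Esrrg, Nr5a1 and Nr0b2 had not. At day 2, 2 were higher (Tfcp2 and Prdm1) and 4 lower (Esrra, Ubp1, Grhl2 and Spib). Prdm1, which encodes BLIMP1, had 7.96 ± 0.964 CPM in control and 17.4 ± 0.624 CPM in KO, higher by 1.13 ± 0.13, and Spib, another ETS gene of the SPI group, was lower by 1.08 ± 0.41, from 18 to 35 counts a library in control and 11 to 13 in KO. At day 4, 4 relatives were higher (Ubp1, Prdm1, Prdm4 and Yy1) and 1 was lower (Grhl2, by 0.47 ± 0.09).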

How the data were processed

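The authors deposited, for each library, unnormalized counts of reads by gene symbol. The submitters' processing notes name STAR, StringTie, featureCounts and DESeq2 and the builds mm10 and GRCm38; their versions, order, annotation and strand setting are not known from these notes. Groups and replicate numbers were read from the sample titles and characteristics. The 8 genes, the lists and the tests were chosen with earlier results of these data known.

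Genes were kept with filterByExpr over the 5 groups (minimum count 10, minimum total 15), which left 15696, and libraries were scaled by TMM. The 15 libraries entered 1 quasi-likelihood fit of edgeR 4.0.16 (R 4.3.3), with a coefficient for each of the 5 groups, and p-values were adjusted by Benjamini-Hochberg across the tested genes, with a call under 0.05. The procedure was tested on simulated data. No pair of libraries in a group agreed within sampling noise (chi-square per degree of freedom 3.36 to 34.2), so each counted as 1 sample.

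The alternatives were other scaling (RLE, upper quartile), another filter (none, or 10 CPM in 3 libraries), DESeq2 1.42.0, a fit of only the groups compared, the replicate block, the collagen score, 13 libraries, and leaving out each library in turn. All 8 genes are named. Of a list, counts are given, with values for the called genes that changed most in KO and the names of any 5 or fewer that were called. Genes compared for likeness had at least 5 CPM in a group, and predicted or unnamed genes were left out. The genes most like Tfcp2l1 are not reported here. Gene positions come from GENCODE M21 on GRCm38, and promoter sequences and chromosomes (found for 98.2% of the tested symbols) from RefSeq.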

Additional observations from a re-analysis of the deposited data

Results flagged for a closer look

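By the edgeR test of the difference itself, the KO effect was not the same at both days for 5 of the 8 genes. The difference, day 4 minus day 2, was 0.44 for Esrrb, 0.63 for Tfcp2l1, 1.03 for Tbx3 and 0.72 for Nr0b1, and -2.80 for Spic. The call for Nr0b1 was lost in 8 of 24 alternatives, with edgeR adjusted p between 0.0529 and 0.083. Chromosome 18, where none of these genes lie, had a median KO difference of 0.56 at day 2 and 0.01 at day 4. Whether the day 2 and day 4 cells differ in more than day was not tested.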

How the results depend on the processing

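Over 24 alternatives, 1344 values of the 8 genes were recomputed, and 1276 kept their side of the threshold, 55 lost and 12 gained a call. Those 1276 include values that changed sign with neither value passing, as for Nr0b1 in KO against control at day 4 (0.29 and, with the collagen score, -0.13). For 1 the alternative made a call in the opposite direction: with the collagen score as a covariate Nr0b1 was higher in control at day 4 than at day 2 by 0.69, where the value without it was -0.01; the cause was not tested. The count of genes lower in KO at day 2, 0, became 1 with no filter, the replicate block, 13 libraries, only the groups compared or DESeq2 and 2 with the collagen score, and was between 0 and 1 when a library was left out; it was Nr0b1, joined by Esrrb with the score. From day 2 to day 4 in KO, 4 genes fell, 2 with the collagen score and between 2 and 4 without a library. In control from day 2 to day 4, between 1 and 2 rose without a library. The replicate numbers do not pair the libraries: deviations of same-numbered libraries correlated between -0.0954 and 0.081, and in 0 of 10 pairs of groups were all above 0.1. With the replicate block, the calls of Nr0b1 at day 2 (gained, -0.44), Tfcp2l1 at day 2 (lost, 0.19) and Tbx3 in KO over time (lost, 0.14) changed. The collagen score of the day 4 libraries lay below that of every ESC library, and within each day the KO scores lay above all control scores (6.51 to 7.49 against 5.41 to 5.69 at day 2, 4.28 to 4.74 against 2.79 to 3.04 at day 4), so comparisons adjusted for it, those of KO with control included, reach across separate ranges. Depth limits Spic at day 4, with 6 to 21 counts a library.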
